A study of Homo sapiens with 24 samples.

Results

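Respiratory chain complex I is the NADH dehydrogenase of the inner mitochondrial membrane, and its nuclear genes were followed here in a Burkitt lymphoma line after induction of the miR-28 precursor. The genes were taken by symbol: a probe set was included if the platform annotation gave it a single gene symbol that starts with NDUFA, NDUFB, NDUFC, NDUFS, NDUFV or NDUFAF. This gave 82 of the 54613 probe sets that were not controls, for 44 of 19775 genes. Of these genes 5 code for core subunits, 10 for accessory subunits of the peripheral arm, 18 for accessory subunits of the membrane arm and 8 for assembly factors, while 3 are noncoding transcripts named after a neighbouring subunit gene. Subunits whose probe sets carry several symbols, such as NDUFS5 and NDUFS8, were not used here. NDUFA4 is listed under the symbol COXFA4 and did not meet the rule.

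P3HR1 is an established human Burkitt lymphoma line, grown in IMDM with fetal calf serum. All cells carried the doxycycline-inducible vector pRTS1, which in the miR28 cells encoded GFP together with the miR-28 precursor and in the CTR cells GFP alone. RNA was hybridised to 24 arrays in 4 groups of 6, namely miR28 after 12 h, CTR after 12 h, miR28 after 24 h and CTR after 24 h. Each group held 3 inductions of bulk population A and 3 of bulk population B. Every array was of doxycycline-treated cells; the labels give the dose as 0.1 ug/ml in one field and 1 ug/ml in another, for all groups alike. As the inductions came from 2 populations per genotype, the p-values speak only to the spread of inductions, which may be technical. No uninduced cells were analysed here, so differences that preceded doxycycline and those that followed it cannot be told apart. In bulk RNA, fewer cells of one state and less RNA per cell cannot be told apart either.

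Complex I takes electrons from NADH in its peripheral arm, passes them along iron-sulfur clusters to ubiquinone, and couples this to proton pumping in its membrane arm. The core subunits hold the cofactors and the pumps. Accessory subunits surround and stabilise that core, and assembly factors build modules of the complex without staying in it. The pump subunits and other hydrophobic core subunits are encoded by mitochondrial DNA, so the nuclear genes described here are the other side of a complex made from both genomes.

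The arrays were alike in scale, with a 2% trimmed mean near 500.1 on each, and arrays of one group correlated across genes at an r of 0.954 to 0.969. The mean intensities of 5 B-cell markers (MS4A1, CD79A, CD79B, CD22 and PAX5) had a median of 10054.5, and those of T-cell, myeloid, NK-cell and fibroblast or epithelial markers had medians of 63.6, 63.8, 45.7 and 41.7. The log2 ratio of 3' to 5' ACTB control signal was above 1 on 2 arrays, 1.05 for miR28 B2 at 12 h and 1.59 for CTR B2 at 24 h.

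The sequences shown are a mature product of the induced precursor, which gives hsa-miR-28-3p and hsa-miR-28-5p, and the promoter windows of the members with the smallest adjusted p below and above CTR at 24 h. For hsa-miR-28-3p, encoded at chr3:188688834-188688855 on the plus strand (RefSeq, GRCh38.p14), capitals mark the seed, bases 2 to 8, with which a miRNA pairs to its targets.
hsa-miR-28-3p: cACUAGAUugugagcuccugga
NDUFS1 and NDUFA11 are shown by the 250 bases before and 50 bases after the RefSeq start site, both on the minus strand, at chr2:206159395-206159694 and chr19:5903741-5904040 (GRCh38.p14). Capitals mark matches on either strand to the 3 motifs searched: the palindromic consensus of NRF1, CCGGAAGT for ETS factors and ATGGCGGC for YY1, factors known from work on promoters of respiratory chain genes. No match overlapped another in these windows.
NDUFS1: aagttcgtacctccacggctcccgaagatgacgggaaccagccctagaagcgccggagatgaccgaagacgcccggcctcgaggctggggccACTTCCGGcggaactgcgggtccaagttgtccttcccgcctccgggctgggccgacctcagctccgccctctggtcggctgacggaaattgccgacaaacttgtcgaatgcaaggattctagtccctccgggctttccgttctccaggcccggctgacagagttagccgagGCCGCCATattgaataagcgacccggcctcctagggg
NDUFA11: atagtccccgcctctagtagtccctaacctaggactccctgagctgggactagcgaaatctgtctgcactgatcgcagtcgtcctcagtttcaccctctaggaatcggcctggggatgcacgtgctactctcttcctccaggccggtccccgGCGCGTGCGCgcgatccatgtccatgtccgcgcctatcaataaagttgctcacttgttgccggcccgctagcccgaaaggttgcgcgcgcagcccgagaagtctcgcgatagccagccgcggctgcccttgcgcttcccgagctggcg
The NDUFS1 window held an ETS and a YY1 match and no NRF1 match, and the NDUFA11 window held 1 NRF1 match.

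The first comparison asked whether complex I transcripts differed between miR28 and CTR cells at each time. At 12 h no member passed the test, and at 24 h 1 member did: NDUFS1, a core iron-sulfur subunit of the peripheral arm, was lower in miR28 cells. Its log2 difference was -0.27 ± 0.07 (SE, limma, adjusted p = 0.017). All 41 coding members differed by less than 0.3 on the log2 scale at either time, and the coding member with the largest estimate at 24 h was NDUFA1, at 0.29 ± 0.16, which was not called. Differences of the dim noncoding members reached 0.57 at 12 h and -0.61 at 24 h, also without a call. Called members were 0 of 44 at 12 h, against 0.536% of all 11380 genes tested, and 1 of 44 at 24 h, against 5.35% (2.75% lower) of all genes. At an unadjusted p under 0.05 there were 5 of 44 members at 12 h and 9 of 44 at 24 h, against 9.67% and 18.8% of all genes.

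**Figure D1:**
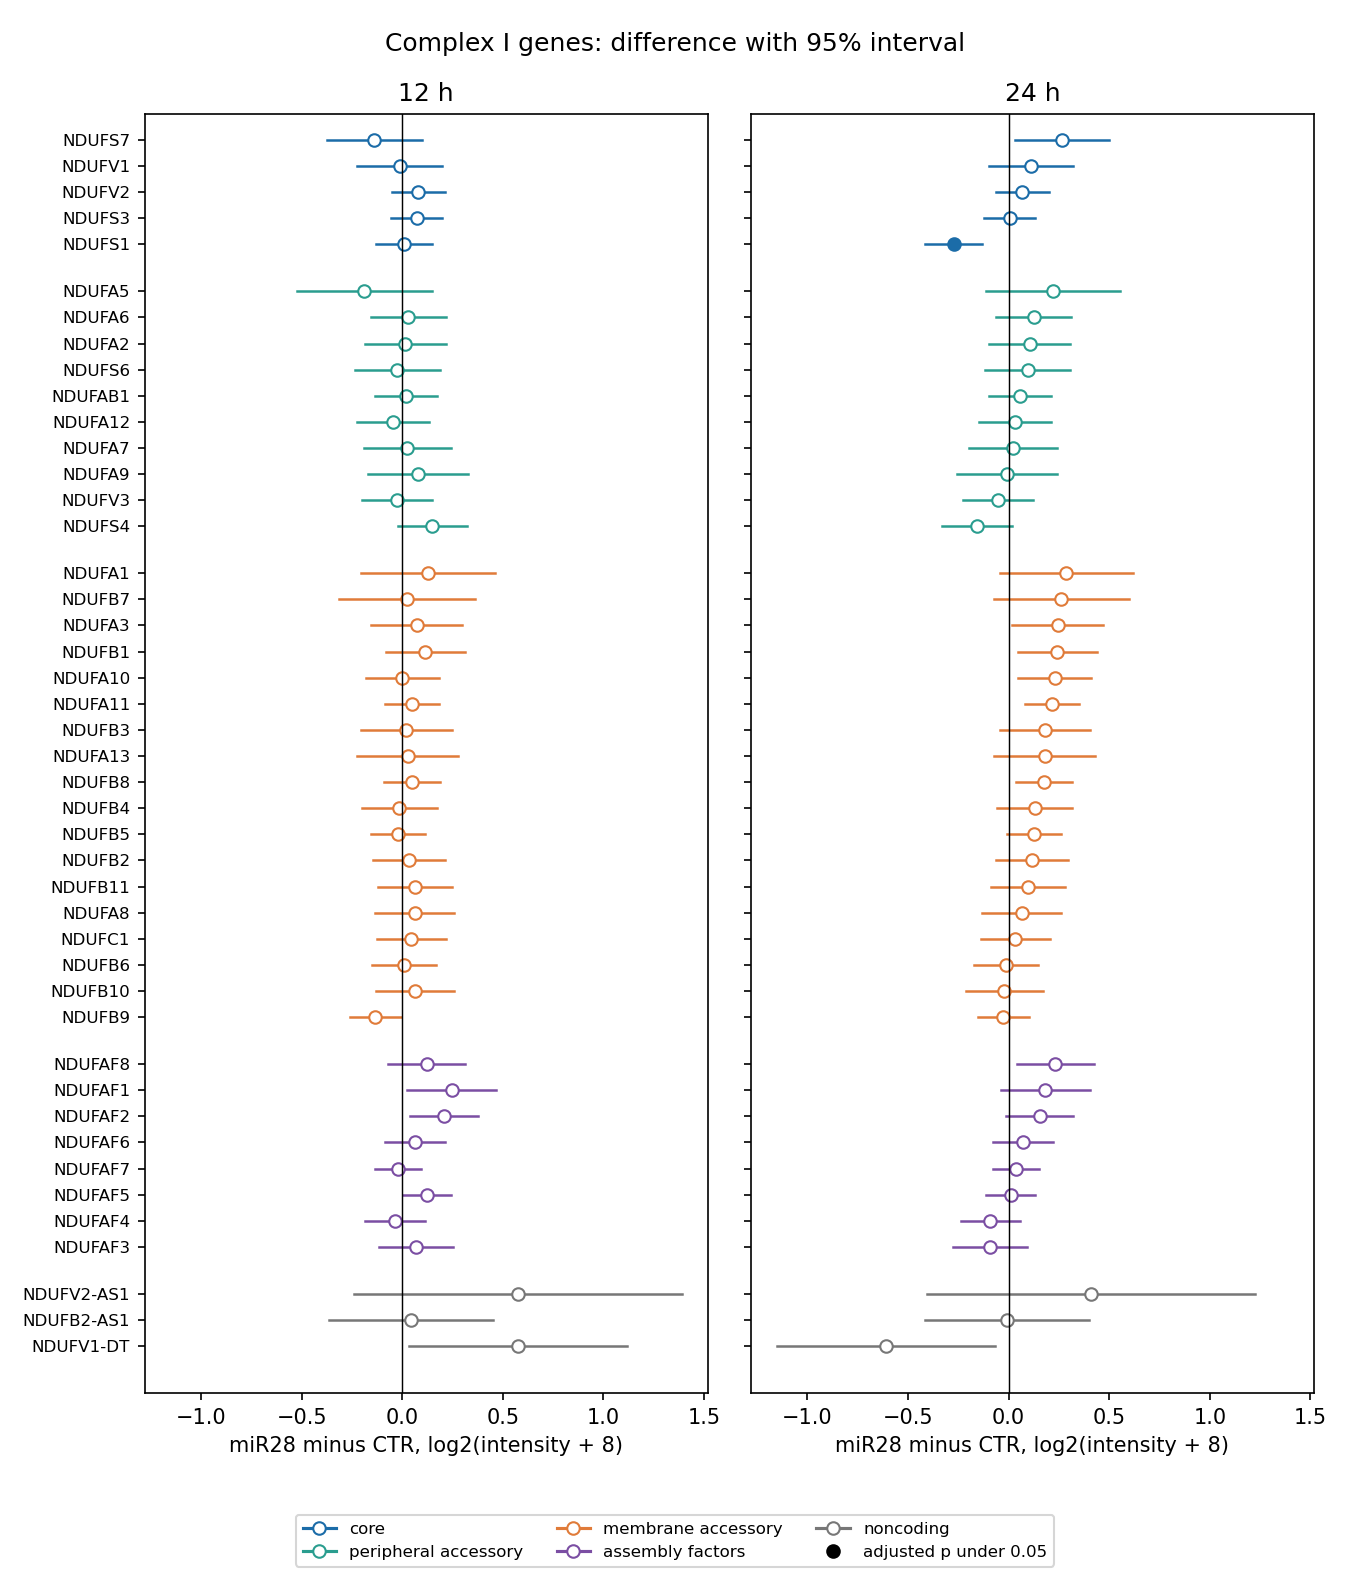
Difference of miR28 minus CTR in log2(intensity + 8) for each of the 44 member genes at 12 h (left) and 24 h (right), ordered by role; circles are estimates from 6 arrays a group, lines the 95% intervals, and a filled circle an adjusted p under 0.05. NDUFS1 at 24 h is the 1 filled circle, and 32 of 41 coding members lie above 0 at 24 h.

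Half-widths of the 95% interval, which is not adjusted for the number of genes, of the coding members ran from 0.11 to 0.34 on the log2 scale, with a median of 0.18. The interval lay within 0.5 of 0 for 40 of the 41 coding members at 12 h and for 38 at 24 h.

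Among core subunits, NDUFS1 was the called member at 24 h. Its intensity was 3949.5, 3561 and 3889.7 in population A and 3614, 2883 and 3976 in population B of miR28 cells at 24 h, against 4658, 4254 and 4511 in population A and 4018, 4634 and 4258 in population B of CTR cells. All 6 miR28 arrays were below all 6 CTR arrays, as held in either direction for 3.5% of all genes at 24 h. The difference by same-letter population was -0.24 for A and -0.31 for B. At 12 h NDUFS1 averaged 3701 ± 111 in miR28 and 3678 ± 199.7 in CTR cells (SD, n = 6 each), a log2 difference of 0.01 ± 0.07 (SE).

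**Figure D2:**
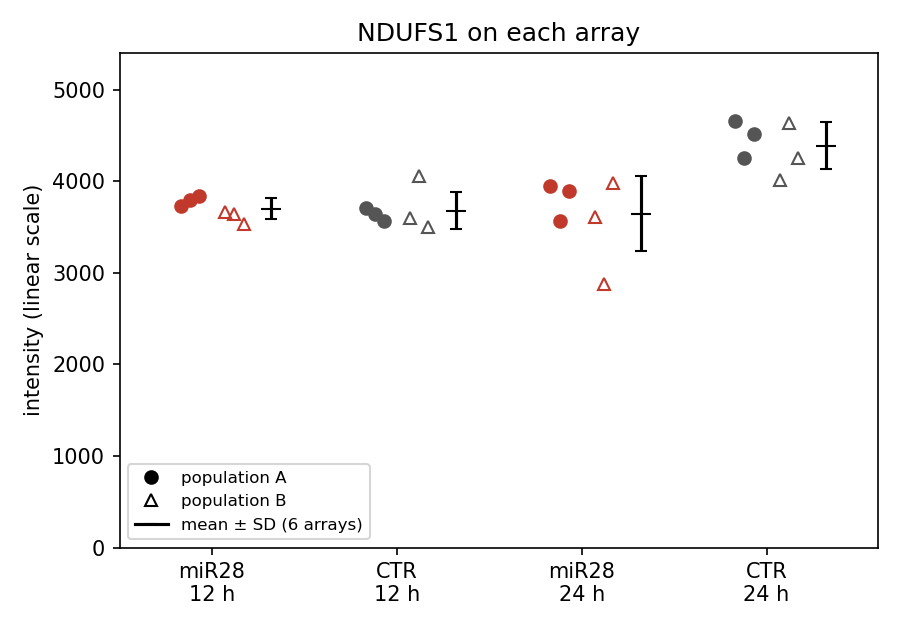
NDUFS1 intensity (linear scale, from 0) on each of the 24 arrays by genotype and time; filled circles are population A, open triangles population B, and the bar at the right of each group its mean ± SD over 6 arrays. The miR28 arrays at 24 h lie between 2883 and 3976, all below the CTR arrays at 24 h, between 4018 and 4658.

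The change of the NDUFS1 difference between times, 24 h minus 12 h, was -0.28 ± 0.10 (SE, limma, adjusted p = 0.55), so a difference in effect between the times was not called. The NDUFS1 call at 24 h depended on the probe set and on the scaling. Of its 5 probe sets, the next brightest gave -0.23 ± 0.10 (SE), the 2 dimmer ones above the filter gave 0.13 ± 0.18 and 0.54 ± 0.27, and the dimmest was below it. With all its probe sets averaged the difference was 0.04 (adjusted p = 0.867), and with arrays centred on their median it was -0.22 (adjusted p = 0.106).

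The other core subunits did not pass the test at 24 h. NDUFS7, which carries the iron-sulfur cluster next to the quinone site, ran from 2685 to 4847 with a median of 3439 in miR28 cells and from 2535 to 3724 with a median of 2865 in CTR cells. Its arrays overlapped, and the log2 difference was 0.26 ± 0.11 (SE, adjusted p = 0.198). NDUFV2, an iron-sulfur subunit of the NADH-oxidising module, differed by 0.07 ± 0.06 at 24 h and by 0.08 ± 0.06 at 12 h. NDUFV1, which binds NADH and the flavin cofactor, differed by 0.11 ± 0.10, and NDUFS3, of the quinone module, by 0.01 ± 0.06 at 24 h.

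None of the 10 peripheral accessory subunits was called at either time. Their differences at 24 h ran from -0.16 to 0.22, with a median of 0.04, and 7 of 10 were above 0. NDUFS4, an accessory subunit whose loss causes Leigh syndrome, ran from 2909 to 4034 with a median of 3370 in miR28 cells at 24 h and from 3414 to 4167 with a median of 3942 in CTR cells. These arrays overlapped. The NDUFS4 difference was -0.16 ± 0.08 (SE) at 24 h and 0.15 ± 0.08 at 12 h, and the change between times, -0.31 ± 0.12, had an adjusted p of 0.607. NDUFA5 differed by 0.22 ± 0.16 and NDUFA6, an LYR-motif subunit, by 0.12 ± 0.09 at 24 h. NDUFAB1, the mitochondrial acyl carrier protein, differed by 0.06 ± 0.07 and NDUFA12 by 0.03 ± 0.09; with NDUFA1 they had the highest intensities of the members.

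The 18 membrane accessory subunits also had no called member, and 15 of 18 lay above 0 at 24 h. Their median difference was 0.15 at 24 h and 0.04 at 12 h. NDUFA11, a subunit of the membrane arm, ran from 14834 to 18702 with a median of 16949.7 in miR28 cells at 24 h and from 14062 to 15893 with a median of 14361 in CTR cells. Most miR28 arrays were higher, but the groups overlapped, and the difference of 0.22 ± 0.06 (SE) had an adjusted p of 0.051. Its second probe set gave 0.15 ± 0.08.

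NDUFB8, a subunit of the distal membrane arm often used as a protein marker of complex I, was 11542, 11185 and 11355 in population A and 13145, 11721 and 11076 in population B of miR28 cells at 24 h. In CTR cells it was 10498, 10937 and 9614 in population A and 9655, 10759 and 10435 in population B. All miR28 arrays were above all CTR arrays, as held in either direction for 3.5% of all genes at 24 h. The difference of 0.18 ± 0.07 (SE, limma) had an adjusted p of 0.134. NDUFA10, a membrane-arm subunit related to nucleoside kinases, differed by 0.23 ± 0.09 (adjusted p = 0.142). NDUFA1 differed by 0.29 ± 0.16 at 24 h. NDUFB9 had the largest moderated statistic of this class at 12 h, with -0.13 ± 0.06 (adjusted p = 0.491), and -0.03 ± 0.06 at 24 h.

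The 8 NDUFAF assembly factors had no called member in either genotype comparison. NDUFAF8, a partner of NDUFAF5, ran from 3717 to 4365 with a median of 3978 in miR28 cells at 24 h and from 2654 to 4284 with a median of 3349 in CTR cells. Its groups overlapped, with a difference of 0.23 ± 0.09 (SE, adjusted p = 0.16). NDUFAF1, which works in the complex that assembles the membrane arm, differed by 0.25 ± 0.11 at 12 h and by 0.18 ± 0.11 at 24 h. NDUFAF2, a relative of NDUFA12 that acts late in assembly, had differences of 0.21 ± 0.08 at 12 h, with an adjusted p of 0.389, and 0.15 ± 0.08 at 24 h.

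The noncoding members were the 3 dimmest. NDUFV1-DT is transcribed from the opposite strand next to NDUFV1, and the promoter windows of these genes overlap, at chr11:67606657-67606956 and chr11:67606686-67606985 (GRCh38.p14). The difference was 0.57 ± 0.26 (SE) at 12 h and -0.61 ± 0.26 at 24 h, with adjusted p of 0.482 and 0.197, while NDUFV1 differed by -0.01 ± 0.10 and 0.11 ± 0.10. NDUFV2-AS1 differed by 0.41 ± 0.39 and NDUFB2-AS1 by -0.01 ± 0.20 at 24 h.

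Taken as a group, the coding members had a median difference of 0.10 at 24 h and 0.03 at 12 h, against 0.02 and 0.01 for all genes tested. At 24 h 32 of 41 lay above 0 and at 12 h 29 of 41, against 53.9% and 53.5% of all genes. By same-letter population the median at 24 h was 0.04 in A, with 25 of 41 above 0, and 0.15 in B, with 34 of 41 above 0. The mean level of the 41 genes on each array, taken relative to the CTR mean of the same time, ran from 0.01 to 0.14 in miR28 cells and from -0.13 to 0.12 in CTR cells at 24 h. These ranges overlapped, and the lowest CTR array was B2, the array with the ACTB ratio of 1.59. Without the 2 arrays of high ACTB ratio, a choice made after seeing the data, the median difference at 24 h was 0.07. The part of this ratio in the result was not tested.

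**Figure D3:**
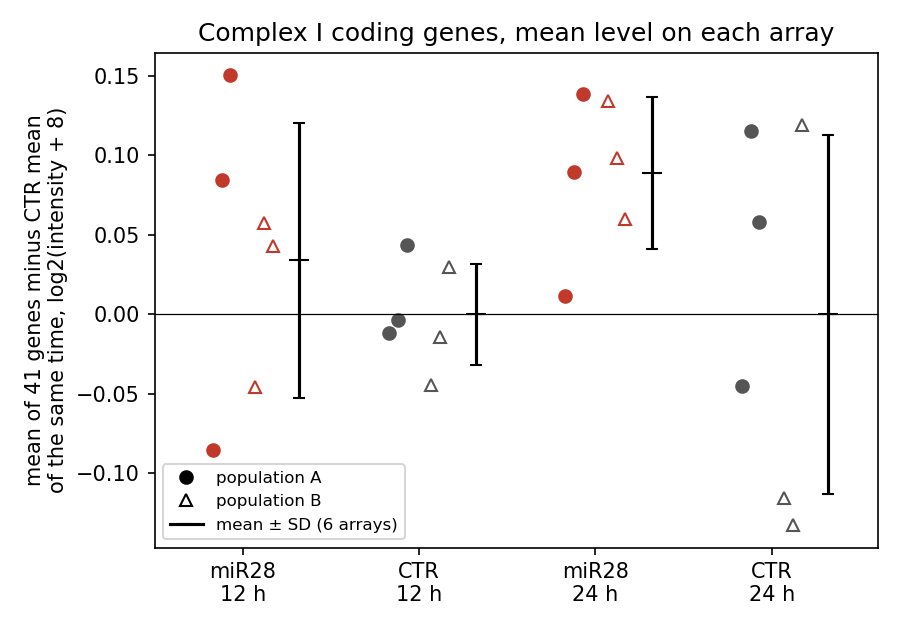
Mean of the 41 coding members on each array in log2(intensity + 8), relative to the CTR mean of the same time; filled circles are population A, open triangles population B, and the bar shows the mean ± SD of 6 arrays. At 24 h the miR28 arrays lie between 0.01 and 0.14 and the CTR arrays between -0.13 and 0.12.

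No member was called for a difference between populations in its miR28 effect. The lowest adjusted p was 0.792 at 24 h and 0.903 at 12 h (limma, 8 means). Over all genes 0% and 0.00879% were called in these tests. The letters are not known to pair a miR28 with a CTR population.

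Probe sets of one gene often disagreed in sign. Above the filter on low values lay 70 of the 82 probe sets; the other 12 had mean intensities of 11.4 to 71.3. Each of the 44 genes kept at least 1. Of 20 genes with several probe sets above the filter, 12 had differences of both signs at 24 h: NDUFA6, NDUFA7, NDUFA10, NDUFAF6, NDUFAF7, NDUFB1, NDUFB2, NDUFB6, NDUFC1, NDUFS1, NDUFS4 and NDUFV3. In most of these the second sign came from a dim probe set. For NDUFB1 the brightest probe set gave 0.24 ± 0.10 and the dim one -0.45 ± 0.22, and for NDUFC1 they gave 0.03 ± 0.09 and -0.25 ± 0.16. For NDUFV3 they gave -0.05 ± 0.09 and 0.07 ± 0.13. When each probe set was tested on its own and adjusted over 27306 probe sets, 1 member was called at 24 h, the brightest of NDUFS1 (adjusted p = 0.0405), against 2.75% of all probe sets, and 0 at 12 h, against 0.165%.

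The second comparison asked how members changed between 12 h and 24 h in each genotype. In miR28 cells 1 of 44 members was called, against 4.66% of all genes, and in CTR cells 3 of 44, against 6.14%. All 4 calls were rises, as were 302 of 530 calls over all genes in miR28 cells and 410 of 699 in CTR cells. No gene, member or other, was called for a difference of the time change between genotypes (0% of 11380 genes by limma), where 4 of 44 members and 6.92% of all genes had an unadjusted p under 0.05. The NDUFS1 comparison at 24 h and the time change in CTR cells share the CTR arrays at 24 h.

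In miR28 cells the called member was NDUFAF7, a methyltransferase that modifies a core subunit during assembly. It was 1592, 1659 and 1609 in population A and 1796, 1720.5 and 1842 in population B at 24 h, against 1491, 1415 and 1341 in A and 1428, 1560.2 and 1460.5 in B at 12 h. All arrays at 24 h were above all at 12 h, as held in either direction for 3.38% of genes, and the rise was 0.23 ± 0.06 (SE, limma, adjusted p = 0.022). In CTR cells the arrays of NDUFAF7 also did not overlap between times, as for 3.93% of all genes. The difference there was 0.17 ± 0.06 (limma, adjusted p = 0.07). The rise in miR28 cells was not called without miR28 A3 at 12 h (adjusted p = 0.0543) or without miR28 B3 at 24 h (adjusted p = 0.0523).

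In CTR cells the called members were NDUFAF2, NDUFS1 and NDUFV1-DT. NDUFAF2 was 2912, 2921 and 2816 in population A and 2435, 2601 and 2841 in population B at 24 h, against 2264, 2326 and 2346 in A and 1946, 2373 and 2196 in B at 12 h. The arrays of the times did not overlap, as for 3.93% of all genes, and the rise was 0.30 ± 0.08 (SE, limma, adjusted p = 0.037). In miR28 cells its difference was 0.24 ± 0.08 (adjusted p = 0.103). NDUFS1 rose by 0.25 ± 0.07 in CTR cells (adjusted p = 0.031) and differed by -0.03 ± 0.07 in miR28 cells (adjusted p = 0.868). Its lowest CTR array at 24 h, at 4018, lay below its highest at 12 h, at 4059.6. This change in CTR cells was 0.11, 0.35 and -0.50 by the dimmer NDUFS1 probe sets that passed the filter, and with the probe sets averaged it was 0.05 (limma, adjusted p = 0.828). Without the 2 arrays of high ACTB ratio it was 0.24 (adjusted p = 0.0678).

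NDUFV1-DT averaged 187 ± 48.7 at 24 h and 95.7 ± 32.4 at 12 h in CTR cells (SD, n = 6 each). The rise was 0.95 ± 0.27 (SE, adjusted p = 0.039), on a scale that understates changes of dim probe sets. In miR28 cells it averaged 121 ± 39.8 at 24 h and 148 ± 66.1 at 12 h, a difference of -0.24 ± 0.27. Leaving out 1 array at a time left between 0 and 3 calls in CTR cells: 0 without A3 at 24 h, or B1 or B3 at 12 h, and 1 without A1, A2 or B3 at 24 h.

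**Figure D4:**
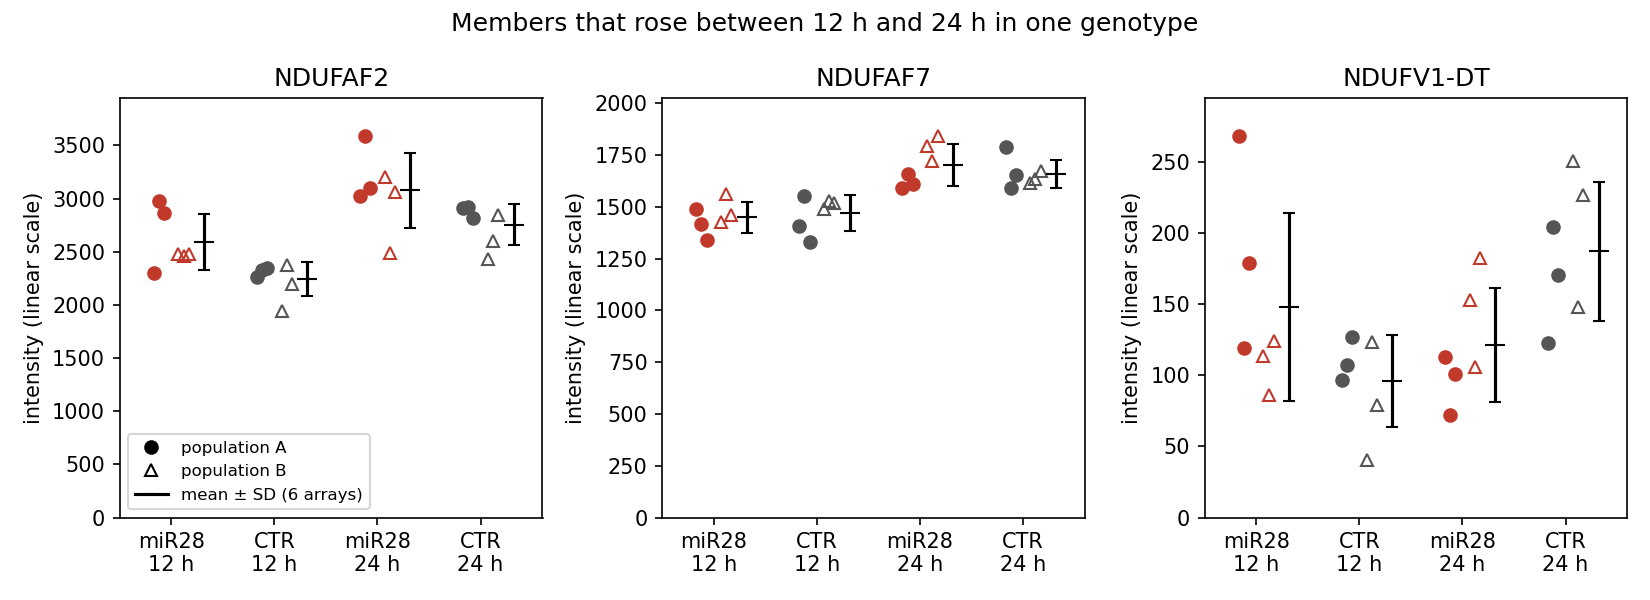
Intensity (linear scale, from 0) of NDUFAF2, NDUFAF7 and NDUFV1-DT on each array by genotype and time; filled circles are population A, open triangles population B, and the bar shows the mean ± SD of 6 arrays. NDUFAF7 in miR28 cells lies between 1592 and 1842 at 24 h and between 1341 and 1560.2 at 12 h.

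Among probe sets tested on their own, the second probe set of NDUFB2, a membrane accessory subunit, rose in miR28 cells between 12 h and 24 h by 0.45 ± 0.07 (SE, adjusted p = 0.0025), where 1.88% of all probe sets were called. The brighter probe set of NDUFB2 differed by 0.19 ± 0.09 (adjusted p = 0.332).

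Other genes of the respiratory chain give the setting for these values. Over all genes tested, 0.536% were called between genotypes at 12 h and 5.35% at 24 h. Those at 24 h were 296 higher and 313 lower in miR28 cells. Of 15 further complex I assembly factors, 1 was lower in miR28 cells and none higher at 24 h: CHCHD4, the import receptor of the intermembrane space, with -0.39 ± 0.07 (SE, limma, adjusted p = 0.0018). The 7 complex II, 13 complex III and 19 complex V genes tested had no call in either genotype comparison, with medians at 24 h of 0.09, 0.07 and 0.03. The genes with the largest statistic in these lists were SDHAF2 (0.20 ± 0.08), UQCC1 (0.35 ± 0.11) and ATP5F1E (0.14 ± 0.07). Of 25 complex IV genes COX20, a chaperone of a mitochondrially encoded subunit, was called lower in miR28 than in CTR cells at 24 h. COX20 was lower by 0.56 ± 0.12 on the log2 scale (limma, adjusted p = 0.0061), although another of its probe sets gave 0.31. COXFA4, the complex IV subunit once named NDUFA4, differed by 0.14 ± 0.07 (adjusted p = 0.296). Of 11 regulators of mitochondrial biogenesis 2 were called lower in miR28 than in CTR cells at 24 h, NRF1 and TFB1M. The transcription factor NRF1 was lower by 0.50 ± 0.10 (limma, adjusted p = 0.0034). Its dimmer probe sets above the filter gave -0.41, -0.39, -0.76 and 0.13. TFB1M, which methylates mitochondrial ribosomal RNA, was lower by 0.30 ± 0.08 (limma, adjusted p = 0.031). Its dimmer probe sets above the filter gave -0.20 and -0.58. With adjustment over all probe sets, the brightest of TFB1M was not called (limma, adjusted p = 0.058).

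**Figure D5:**
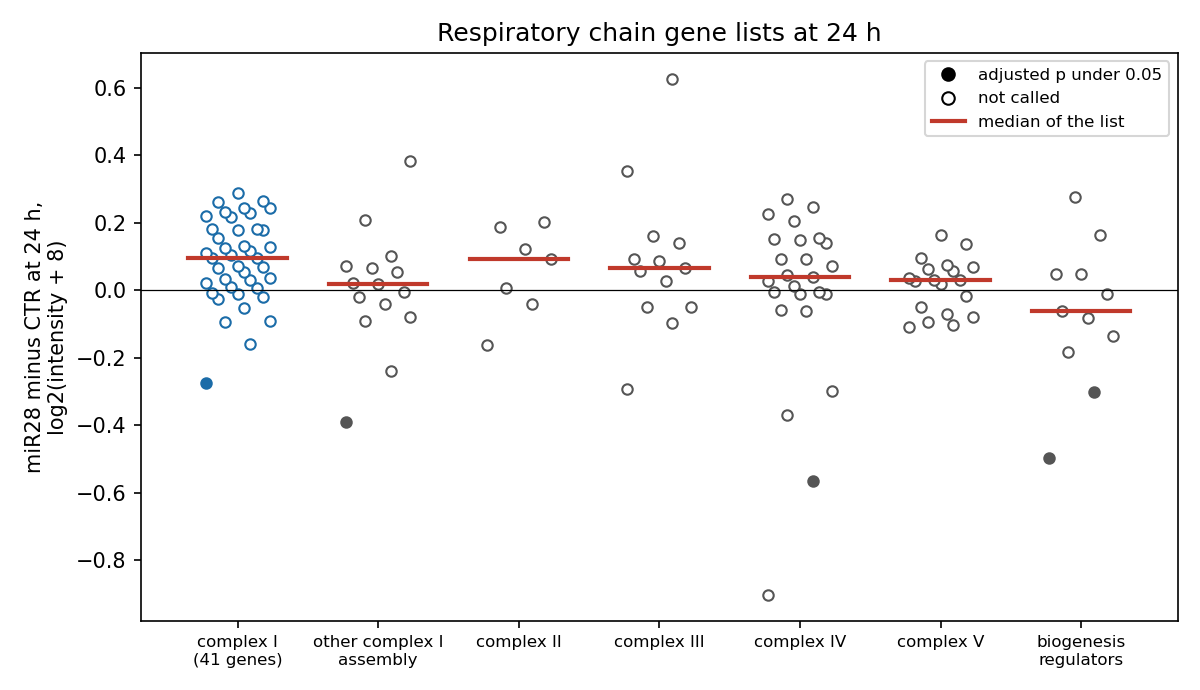
Difference of miR28 minus CTR at 24 h in log2(intensity + 8) for each gene of the respiratory chain lists; a filled circle marks an adjusted p under 0.05 and the red line the median of the list. The median of complex I is 0.10, and the called genes, NDUFS1, CHCHD4, COX20, NRF1 and TFB1M, all lie below 0. Over all genes tested, 2.6% were called higher and 2.75% lower.

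With time, ACAD9, an assembly factor that works with NDUFAF1, differed by 0.35 ± 0.09 (SE) in miR28 cells and 0.37 ± 0.09 in CTR cells between 12 h and 24 h and was called in both. TMEM126B, of the same assembly complex, differed by 0.32 ± 0.09 in miR28 cells (adjusted p = 0.051) and rose by 0.34 ± 0.09 in CTR cells (adjusted p = 0.032). COX14, a complex IV assembly factor, rose by 0.37 ± 0.10 in miR28 cells (limma, adjusted p = 0.029). In CTR cells it differed by 0.17, without a call. TFB1M rose by 0.29 ± 0.08 in CTR cells (limma, adjusted p = 0.043) and differed by 0.09 in miR28 cells, without a call. Over all genes 4.66% were called with time in miR28 cells and 6.14% in CTR cells. NRF1 fell in miR28 cells by 0.44 ± 0.10 on the log2 scale (adjusted p = 0.015). In CTR cells its difference was 0.03 (adjusted p = 0.926). Of the mitochondrially encoded subunits, chosen after the annotation was seen, ND2, ND4 and ND6 differed by -0.04 ± 0.11, -0.13 ± 0.12 and -0.05 ± 0.19 between miR28 and CTR cells at 24 h, and none was called.

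As NRF1 was lower in miR28 cells at 24 h, the promoter windows were read for its motif. It occurred in 7 of the 38 coding members with a window (18.4%), in 6.29% of all 27305 promoters and in 12.4% of those of tested genes. The members with the motif had a median difference at 24 h of 0.07 and those without it 0.10. Over all tested genes with a window these medians were 0.003 and 0.025. The YY1 motif occurred in 8 of the 38 windows (21.1%), against 3.21% of all promoters and 6.55% of those of tested genes. The ETS motif occurred in 2 (5.26%), against 4.43% of all promoters and 9.25% of those of tested genes. Members with and without the YY1 motif had medians of 0.01 and 0.12 at 24 h, against 0.035 and 0.021 over all tested genes with a window. For the ETS motif the medians of members with and without it were -0.05 and 0.10. The first rests on NDUFS1 at -0.27 and NDUFA13 at 0.18 alone. Over all tested genes with a window they were 0.013 and 0.023. These matches are a description of the letters in the windows, and a part of NRF1 in the differences was not tested.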

How the data were processed

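The authors deposited a linear intensity for each probe set, made with MAS5, per the submitters' processing notes; settings and version are not given in the sources used here. Biotinylated cRNA was hybridised, per the labels' protocols. Of 54675 probe sets 62 were controls; 41091 had 1 symbol in the platform annotation, 1801 several and 11721 none, and 41043 were matched to RefSeq by gene number. Values were taken as log2(intensity + 8), which understates changes of dim probe sets. The brightest probe set by mean stood for each gene, and 11380 genes with a mean above 6.11, the median over probe sets that were not controls, were tested. A group-means model over all 24 arrays was fitted in R 4.3.3 by limma (3.58.1, with statmod 1.5.0), with bulk population as a random block (consensus correlation -0.0229). Moderated two-sided tests were adjusted by the Benjamini-Hochberg method over all genes, and called at an adjusted p under 0.05. Precision is limited by how many arrays there are.

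The members and lists were chosen with earlier results of these data known. Named genes are all called members; in each role the 3 with the largest moderated statistic at 24 h and the 1 at 12 h; the 3 brightest and 3 dimmest; genes whose probe sets differ in sign at 24 h; and, of the other lists, called genes or else the 1 with the largest statistic. NDUFV1, NDUFS3, COXFA4 and the mitochondrially encoded ND2, ND4 and ND6 were named after values were seen. Same-numbered miR28 and CTR arrays had correlations of deviations from their group means of -0.0938 to 0.0683. Between same-numbered arrays of 12 h and 24 h within a genotype these ran from -0.0776 to 0.0695. The numbers were not taken as pairs in either comparison. Alternatives changed the pseudocount, filter, scaling, block, unit, probe-set rule, variance trend, adjustment and the arrays left out. Promoter and miRNA sequences are from RefSeq (GRCh38.p14), and 41 of 44 members had a promoter window.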

Additional observations from a re-analysis of the deposited data

Results flagged for a closer look

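In 176 tests of a member gene within a group of 6 arrays, 8 had 1 array set apart from the other 5 by a gap above Dixon's critical share of the group's range on the log2 scale; chance flags about 1 in 20 groups. In miR28 cells at 24 h, NDUFS1 was 2883 on B2, against 3561 to 3976 on the other arrays, and without that array the NDUFS1 difference was -0.21 (limma, adjusted p = 0.0367). Also in miR28 cells at 24 h, NDUFB8 was high on B1, at 13145, against 11076 to 11721. NDUFB9 was low on B2, at 14583, against 16292 to 17123, and NDUFS6 was low on B3, at 10597, against 13506 to 15547. In CTR cells at 24 h, NDUFA1 was low on B2, at 9572, against 15532 to 20541, on the array with the ACTB log2 ratio of 1.59. There NDUFB6 was low on B1, at 4939.5, against 6067 to 6708, and NDUFV3 on A1, at 1828, against 2090.4 to 2259.8. NDUFB2-AS1 was low in CTR cells at 12 h on A3, at 148, against 375 to 462.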

How the results depend on the processing

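The 12 h genotype comparison, its change between times and the population contrasts called 0 members under every alternative run. At 24 h the 1 called member became 2, NDUFA11 being added, with a pseudocount of 1, a minimum mean log2 of 8, quantile normalization or an intensity trend, and 0 with no filter, median centring, population A or B alone, population means as the unit, only the groups compared, or the mean of the gene's probe sets; leaving out 1 array gave 1 to 2. For CTR cells with time, 3 became 0 with no filter, either population alone, population means, only the groups compared or adjustment over all probe sets, 1 with median centring, and 4 with quantile normalization; leaving out 1 array gave 0 to 3. For miR28 cells with time, 1 became 0 under those same 6 settings and with the mean of the probe sets, 3 with median centring and 2 with an intensity trend; leaving out 1 array gave 0 to 2. The cause was not tested. The list median at 24 h, 0.10, was 0.15 with median centring, 0.0399 in population A and 0.15 in population B, while median centring moved that of all genes from 0.02 to 0.08. With the mean of the probe sets, NDUFS1 at 24 h turned to 0.041 and NDUFB1 to -0.10. With the numbers as a replicate block, a hint only, 1 member was called at 24 h and 2 in CTR cells with time, where NDUFV1-DT had an adjusted p of 0.0603. Over all genes, 61 calls at 12 h ran from 0 to 77 and 609 at 24 h from 0 to 797 over the alternatives.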
